A study of Mus musculus with 12 samples.

Results

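Tumour tissue from wild type hosts exposed to smoke was compared with tumour tissue from wild type hosts that breathed air, across every gene that a probe set could name. The comparison was between 6 of the 12 arrays of the series, 3 labelled wild type smoke and 3 labelled wild type air. It covered 19937 genes, each measured in every array. All hosts were female C57BL/6 mice, and the tissue was Lewis lung carcinoma, a transplantable mouse tumour line, cut out of their lungs, so that RNA of tumour cells and of host lung were measured together. The other 6 arrays came from hosts of the same sex and strain labelled RelA/p65 deficient, 3 in air and 3 in smoke. They serve here to set the smoke effect of one kind of host beside that of the other. Their spread also entered the single fit of all 12 arrays, and so every standard error and p-value of the wild type comparison. RelA/p65 is one of the proteins that form NF-kB, a transcription factor of inflammation. The title of the series places its loss in myeloid cells, but the labels name no Cre driver, no type or length of smoke exposure and no age. Whether different mice lie behind the 3 arrays of a group is not stated, and each p-value therefore reflects the array-to-array spread alone, which may be technical.

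Lung tissue that meets smoke has several well known responses. Aromatic hydrocarbons in tobacco smoke bind the aryl hydrocarbon receptor, which switches on its own set of detoxifying enzymes, Cyp1a1 first among them, and oxidants switch on a second set through the factor NRF2. Smoke also draws neutrophils and monocytes into the lung through chemokines, and the macrophages that gather there release proteinases that attack elastic fibres. A tumour growing in the lung adds its own programmes, such as cell division, the making of ribosomes, sugar breakdown under low oxygen and the laying down of new matrix.

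Levels are log2 expression as deposited, changes are smoke minus air on that scale with the standard error (SE) of the fit, and an adjusted p under 0.05 from limma, adjusted by Benjamini-Hochberg over all 19937 genes, counted as past the test. Median log2 expression over genes lay between 7.40 and 7.41 in the air arrays and between 7.26 and 7.36 in the smoke arrays, and having 3 arrays a group limits precision throughout. Rela, the gene lost in the other hosts, read 9.25, 9.16 and 9.26 in wild type air and 9.04, 9.01 and 9.19 in wild type smoke, and its difference of -0.14 ± 0.07 did not pass (adjusted p = 0.115), though it was -0.20 and passed without smoke replicate 3 (adjusted p = 0.0467). It read 9.27 to 9.45 in the arrays labelled deficient, no lower than in the wild type. In RNA of tumour and host cells together, this reading cannot show whether myeloid cells had lost the gene. Xist, which silences 1 X chromosome in females, read 10.66 to 10.78 in the 6 wild type arrays. H2-Ea, a class II chain that the C57BL/6 strain is known not to transcribe, read 9.47 to 9.95 in wild type air and 5.51 to 6.73 in wild type smoke, so in air its level goes against the labelled strain.

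Markers of normal lung were lower with smoke, and every result below has to be read beside them. All 14 alveolar type II markers, 13 of 14 alveolar type I markers, 13 of 15 club cell markers, 20 of 22 endothelial markers and 13 of 14 lung fibroblast markers fell. The mean level of the club cell list lay between 10.18 and 10.44 in the air arrays and between 7.16 and 7.30 in the smoke arrays, that of the alveolar type II list between 10.65 and 10.86 against 8.43 and 8.69, that of the endothelial list between 9.72 and 9.92 against 8.40 and 8.48, and that of the lung fibroblast list between 9.33 and 9.59 against 7.05 and 7.11. With smoke Sftpc still read 12.24 to 12.39, while the club cell gene Reg3g read 4.70, 4.48 and 4.65, among the dimmest levels on the array. General macrophage markers went the other way, with 16 of 19 higher and 1 lower and a mean level of 9.57 to 9.73 with smoke against 8.82 to 9.05 in air. Alveolar macrophage markers did not, with 9 of 14 lower and 2 higher, Mmp12 and Marco, and a mean level of 7.26 to 7.31 with smoke against 7.91 to 8.01 in air. Among them Car4, which lung endothelium also expresses, fell by 3.84. Of 19 neutrophil markers 11 rose and 3 fell, and their mean level was 7.04 to 7.06 against 6.58 to 6.79. None of 24 T and NK cell markers and none of 17 B cell markers rose, and 5 and 6 of them fell (20.8% and 35.3%). Over all genes 15% rose and 14% fell, so the share of T and NK cell markers that fell was not far from that of all genes. How much of any result below came with these shifts in cell types was not tested, and in tissue RNA fewer cells of a type and less RNA per cell cannot be told apart.

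With smoke, 5778 genes (29% of those tested) passed the test, 2991 higher (15%) and 2787 lower (14%), and the groups of arrays did not overlap for 36.9% of genes. The rises were many and small, and the falls were of every size. The median rise among genes past the test was 0.34 and the median fall was -0.53, while the median over all genes was 0.08. Only 68 genes rose at least 2-fold and 2 at least 4-fold, whereas 645 fell at least 2-fold, 174 at least 4-fold and 50 at least 8-fold. Leaving out the 260 genes of the cell type marker lists left 56 that rose and 559 that fell at least 2-fold, but took away more of the larger falls, leaving 130 of at least 4-fold and 28 of at least 8-fold. Among the dimmest genes, with a mean below 5 on the log2 scale, 10.7% rose and 0.673% fell, against 15.8% and 22% between 7 and 8. Of the changed genes 51.8% were higher, a share that became 60.3% after a second quantile normalization, 61.2% with array weights and 77.1% after centring each array on its median, which moved the median of all genes to 0.17. The share also went down, to 46.4% with the filter on dim genes and 40.2% in the 6 wild type arrays alone. Leaving out single arrays gave 39.1% to 61.4%. Replicate 1 of wild type air lay nearest to the smoke arrays for 50 of the 68 genes that rose 2-fold and for 399 of the 645 that fell 2-fold. The count of changed genes was 3695 without air replicate 3 and 8824 without smoke replicate 1, and that of higher genes 1444 and 5420. The pattern of many small rises and fewer large falls is what the plot of change against level shows.

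**Figure D1:**
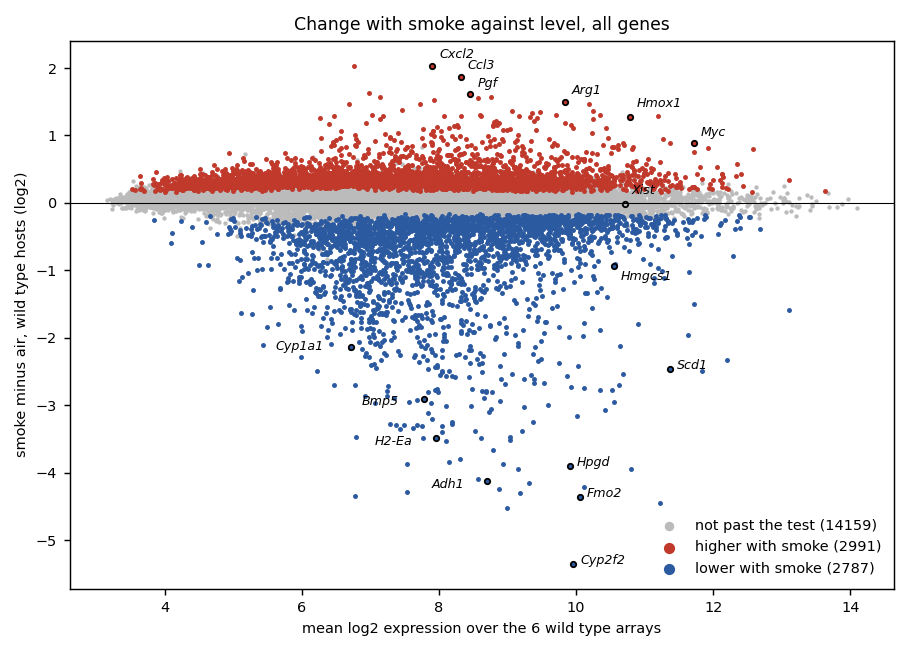
Change with smoke (log2, smoke minus air in wild type hosts) against mean log2 expression over the 6 wild type arrays, 1 point a gene. Red points are the 2991 genes higher with smoke, blue points the 2787 lower and grey points those not past the test, and the blue cloud reaches below -5 while the red one ends near 2.

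The aryl hydrocarbon receptor and its targets did not rise together. Cyp1a1, the enzyme that this receptor induces most strongly, read 7.68, 7.71 and 7.97 in air and 5.52, 5.67 and 5.77 with smoke. All smoke arrays lay below all air arrays, and the fall was 2.13 ± 0.10 on the log2 scale, or 4.39-fold (adjusted p = 2.19e-09). In the deficient hosts the same gene read 6.56, 6.54 and 6.30 in air and 11.46, 11.54 and 11.63 with smoke, a rise of 5.08 ± 0.10, and the difference between the hosts passed the interaction test (adjusted p = 6.24e-12). Ahr, which encodes the receptor itself, fell by 1.39 ± 0.07, from 9.17, 9.17 and 9.28 to 7.89, 7.69 and 7.88. Aldh3a1, an aldehyde dehydrogenase of the same battery, fell by 0.97 ± 0.13 and the receptor's partner Arnt by 0.20 ± 0.06, which missed the test without air replicate 2, air replicate 3, smoke replicate 2 or smoke replicate 3 (-0.20 to -0.17). Of the other targets, Scin, Cyp1a2 and the feedback enzyme Tiparp rose by 0.42 ± 0.07, 0.39 ± 0.07 and 0.44 ± 0.08. Scin and Cyp1a2 were dim, at 5.37 to 5.89 and 4.41 to 4.91 over the 6 wild type arrays. The receptor's repressor Ahrr at 0.37 ± 0.13 (adjusted p = 0.0537, and 0.00127 at 0.54 without smoke replicate 1), Cyp1b1 at -0.18 ± 0.10 and the quinone reductase Nqo1 at 0.03 ± 0.10 did not pass. In the deficient hosts Cyp1b1, Nqo1 and Aldh3a1 rose by 2.35, 1.50 and 1.50. Over the 10 measured genes of this list (AhR targets below), which counts Ahr and Arnt with the targets, 3 rose and 4 fell. Their median was -0.07 against 0.08 over all genes, and the only targets that fell were Cyp1a1 and Aldh3a1. The filter on dim genes left 7 members, of which 1 rose and 4 fell.

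Antioxidant genes of the NRF2 battery went both ways. Hmox1, haem oxygenase 1, which macrophages also induce, read 10.46, 10.06 and 9.93 in air and 11.44, 11.42 and 11.41 with smoke. The smoke arrays lay within 0.03 of each other and above every air array, and the rise was 1.28 ± 0.13, or 2.42-fold (adjusted p = 8.12e-06). Glutathione reductase Gsr rose by 0.48 ± 0.08, the glutathione synthesis subunit Gclm by 0.40 ± 0.07, sulfiredoxin Srxn1 by 0.33 ± 0.06 and the exporter Abcc1 by 0.38 ± 0.09. The glutathione transferase Gsta3 fell by 3.53 ± 0.09, from 9.73, 9.83 and 10.04 to 6.16, 6.48 and 6.35, and Gpx3, a secreted glutathione peroxidase, by 2.62 ± 0.11. Gsta4, the epoxide hydrolase Ephx1 and Gstt1 fell by 1.68, 1.48 and 1.35. The cystine transporter Slc7a11 at 0.30 ± 0.13 and the thioredoxin reductase Txnrd1 at 0.13 ± 0.07 did not pass. Of 26 measured members 5 rose and 10 fell, and their median of 0.07 was near the 0.08 of all genes. After median centring 10 rose and 9 fell, while after a second quantile normalization 7 rose and 10 fell. Falls outnumbered rises under every alternative other than median centring.

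The enzymes that oxidise and conjugate foreign chemicals held the largest falls outside the marker lists. The flavin monooxygenase Fmo2, the main form in mouse lung, read 12.13, 12.23 and 12.35 in air and 8.08, 7.70 and 7.85 with smoke. That is a fall of 4.36 ± 0.09, or 20.5-fold (adjusted p = 3.30e-12). Aldh1a7 fell by 4.29 ± 0.11, the alcohol dehydrogenase Adh1 by 4.13 ± 0.08, Fmo1 by 3.95 ± 0.10 and Cyp2b10, a cytochrome P450 that the receptor CAR induces, by 3.48 ± 0.13. In this list 26 of 34 measured members fell and none rose, with a median of -1.04. Taking out the 5 members that are also cell type markers left 21 of 29 lower and a median of -0.82. Without smoke replicate 1, 3 members also rose.

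Of the other large falls, the sorting protein Mal2 of epithelial cells fell by 3.88 ± 0.14, the airway secretory protein Bpifb1 by 3.87 ± 0.09, the guidance signal Sema3c by 3.79 ± 0.09 and the lipid phosphatase Plpp3 by 3.66 ± 0.08. The membrane peptidases Enpep and Cpm fell by 3.39 ± 0.10 and 3.36 ± 0.11. Enpep read 9.65, 9.65 and 9.92 in air and 6.40, 6.47 and 6.18 with smoke, so the groups were far apart. Among the large rises, the inhibitory receptor Lilr4b of myeloid cells rose by 1.58 ± 0.20, from 8.47, 7.54 and 7.90 to 9.92, 9.51 and 9.22. Rgs16, which shortens G protein signals, rose by 1.35 ± 0.24, from 9.55, 8.58 and 8.27 to 10.15, 10.12 and 10.18, and air replicate 1 was again the nearest to smoke.

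Cholesterol synthesis is run by enzymes that the factor SREBP2 switches on together when sterols are scarce. In this list all 20 measured members fell with smoke, none of them a cell type marker, with changes from -1.38 to -0.22 and a median of -0.72 against 0.08 over all genes. The count was 19 without smoke replicate 2, 18 after median centring and 18 in the 6 wild type arrays alone. Hmgcs1, the synthase at the entry of the pathway, read 10.95, 11.08 and 11.05 in air and 10.14, 10.07 and 10.05 with smoke, a fall of 0.94 ± 0.06 (1.91-fold; adjusted p = 8.76e-08). The gap between the groups was several times the spread within either. The isomerase Idi1 fell by 1.38 ± 0.12, although its second probe set gave -0.61. Insig1, which holds SREBP in the endoplasmic reticulum and is itself a target, fell by 1.17 ± 0.08, the sterol oxidase Msmo1 by 1.00 ± 0.07 and the demethylase Cyp51 by 0.98 ± 0.09. Srebf2, the gene of SREBP2, which was singled out after its value was seen, fell by 0.33 ± 0.06 from 10.20, 10.19 and 10.19 to 9.85, 9.83 and 9.92. In the deficient hosts 3 of the 20 fell with smoke and none rose, with a median of -0.19. Alveolar type II cells, whose markers fell in the same arrays, are rich in these enzymes for making surfactant, and their part in the falls was not tested.

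A sterol regulatory element was looked for in the promoters because the members moved together. The window from 250 bases before to 50 bases after the start of transcription (RefSeq, GRCm38.p6) was available for 16 of the 20 members. The letters TCACNCCAC, on either strand, occurred in 1 of them (6.25%) and in 1.4% of the 15613 genes with a window. That member was Hmgcs1, whose window at chr13:119690101-119690400 on the plus strand is shown with the match in capitals.
Hmgcs1: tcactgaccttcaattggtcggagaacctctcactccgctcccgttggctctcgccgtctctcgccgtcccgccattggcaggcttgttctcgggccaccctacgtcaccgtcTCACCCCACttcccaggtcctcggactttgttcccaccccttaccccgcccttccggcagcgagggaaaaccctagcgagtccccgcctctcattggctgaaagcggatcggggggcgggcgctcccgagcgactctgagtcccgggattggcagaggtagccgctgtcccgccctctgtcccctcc
The match began 137 bases before the start, and no match elsewhere says only that these letters are not in those windows.

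Fatty acid synthesis and desaturation, which the sister factor SREBP1 governs, fell as well. Scd1, the desaturase that makes oleic acid, read 12.52, 12.57 and 12.71 in air and 10.33, 10.07 and 10.01 with smoke, a fall of 2.46 ± 0.09 or 5.52-fold (adjusted p = 1.34e-10). The acetate-activating enzyme Acss2 fell by 1.72 ± 0.07, Scd2 by 1.50 ± 0.07, the desaturase Fads2 by 1.32 ± 0.07 and fatty acid synthase Fasn by 0.95 ± 0.05. Fasn varied little within a group, with 10.48 to 10.53 in air and 9.55 to 9.57 with smoke. Of 23 measured members 17 fell and none rose, with a median of -0.67, and 3 fell in the deficient hosts. The elongase Elovl6 at -0.35 ± 0.13 (adjusted p = 0.0587) did not pass, and 1 member rose without air replicate 2 or without smoke replicate 1.

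**Figure D2:**
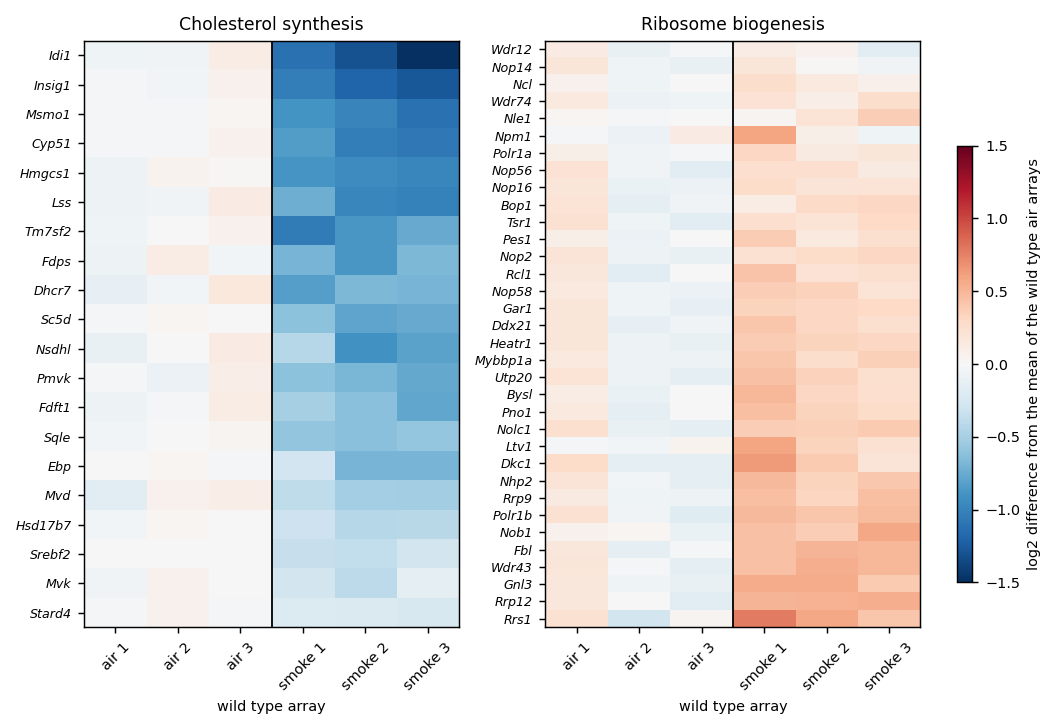
Heat maps of the log2 difference of each wild type array from the mean of the 3 air arrays, for the 20 cholesterol synthesis genes (left) and the 34 ribosome biogenesis genes (right), blue for lower and red for higher. Each of the 20 cholesterol genes was lower in all 3 smoke arrays, while most ribosome genes were higher in smoke and also somewhat higher in air replicate 1 than in the other air arrays.

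Transcription factors that build and maintain the lung were lower almost throughout. Of 44 measured members 37 fell and 2 rose, with a median of -0.57, and without the 6 that are cell type markers 32 of 38 fell with a median of -0.54. Foxf1, the forkhead factor of lung capillaries and mesenchyme, read 10.04, 10.12 and 10.21 in air and 8.59, 8.66 and 8.88 with smoke, a fall of 1.41 ± 0.09 (adjusted p = 4.72e-08). Tcf21 of lung fibroblasts fell by 2.40 ± 0.09, the type I cell factor Hopx by 1.90 ± 0.10, and the T-box factors Tbx4 and Tbx5 of lung mesenchyme by 1.84 ± 0.10 and 1.70 ± 0.10. Nkx2-1, which sets lung epithelial identity, fell by 0.75 ± 0.09, from 7.81, 7.98 and 8.10 to 7.02, 7.32 and 7.30, and Gata6 by 0.48 ± 0.08. Klf2, a factor of endothelium under flow, fell by 0.47 ± 0.10 here and by 0.48 in the deficient hosts, where it also passed. Sox9, a factor of distal lung progenitors and cartilage, went the other way and rose by 0.84 ± 0.13, from 8.51, 8.34 and 8.13 to 9.30, 9.12 and 9.09. The lipid-sensing receptor Ppard also rose, by 0.41 ± 0.07.

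Signals that pass between lung epithelium and mesenchyme included some of the larger falls. Among BMP ligands, which keep lung cells differentiated, Bmp4 read 8.99, 8.97 and 9.23 in air and 6.98, 6.79 and 6.67 with smoke, a fall of 2.25 ± 0.09 (4.76-fold; adjusted p = 4.49e-10). Bmp5 fell by 2.90 ± 0.12 and Bmp6 by 1.94 ± 0.07, and so did the receptor Acvrl1 by 1.53 ± 0.07 and the inhibitory Smad6, itself a BMP target, by 1.94 ± 0.09. Among the members that rose, Ltbp1, which stores latent TGF-beta in the matrix, rose by 0.65 ± 0.07, the induced protein Tgfbi by 0.58 ± 0.08 and the ligand Tgfb3 by 0.34 ± 0.07. In the list of 36 BMP and TGF-beta genes 7 rose and 17 fell, with a median of -0.19.

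Fibroblast growth factor and hedgehog genes showed a similar split. Hhip, the secreted brake on hedgehog signalling, fell by 2.34 ± 0.08, from 8.24, 8.32 and 8.39 to 5.95, 6.10 and 5.89. The epithelial receptor Fgfr2 fell by 2.34 ± 0.12, and its mesenchymal ligands Fgf7 and Fgf10 by 1.27 ± 0.07 and 1.02 ± 0.10. Fgfr1, a receptor of mesenchymal cells, rose by 0.54 ± 0.08 and the hedgehog factors Gli3 and Gli2 by 0.50 ± 0.07 and 0.30 ± 0.07. In all 3 of 27 members rose and 13 fell, with a median of -0.20 (-0.32 without air replicate 1), and 6 rose without smoke replicate 1, 6 with array weights or quantile normalization and 7 after median centring. Among WNT genes, the mesenchymal ligand Wnt2 fell by 1.05 ± 0.14, from 7.78, 7.48 and 7.82 to 6.26, 6.79 and 6.88, and the secreted antagonist Wif1 by 0.40 ± 0.09.

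**Figure D3:**
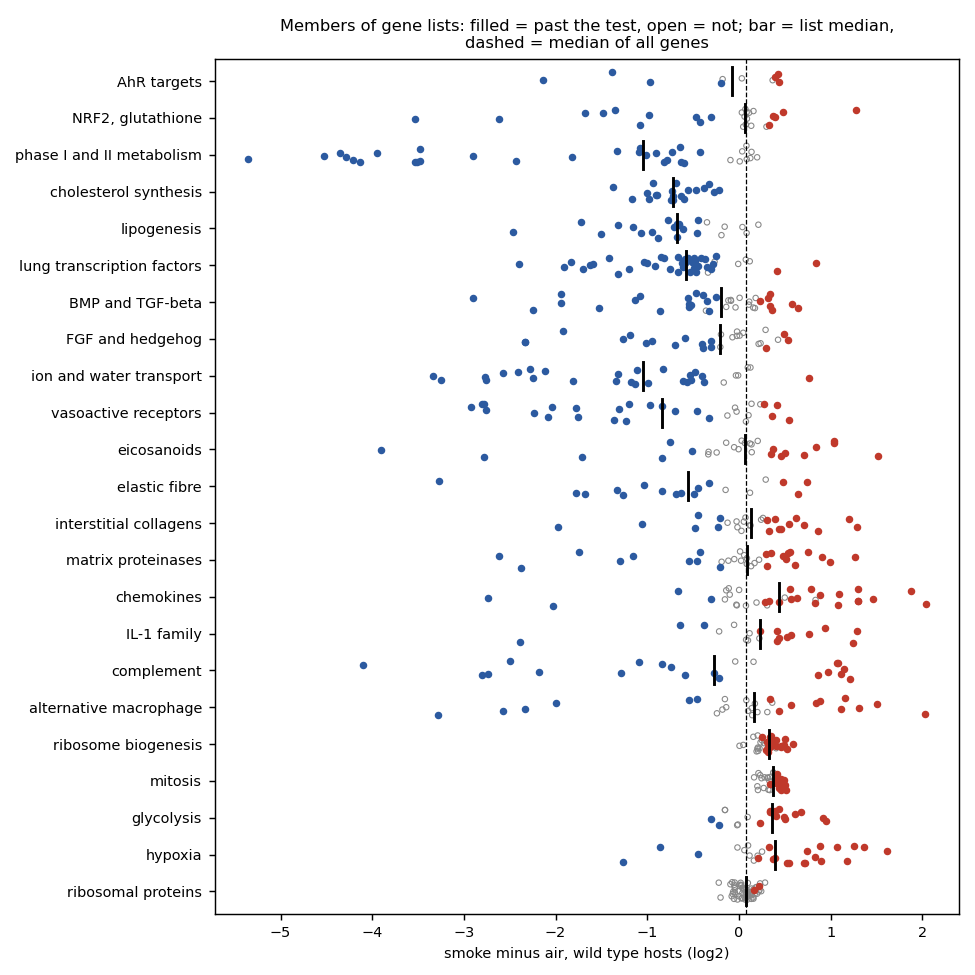
Change with smoke (log2, smoke minus air in wild type hosts) of every measured member of 23 gene lists. Filled points passed the test (red higher, blue lower), open points did not, the black bar is the median of the list and the dashed line the median of all genes at 0.08. Cholesterol synthesis lies wholly to the left and mitosis and ribosome biogenesis to the right, while interstitial collagens, matrix proteinases and complement spread to both sides.

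Channels and carriers that keep the air spaces thinly wetted fell together. The 3 subunits of the epithelial sodium channel, which draws fluid out of the alveoli, moved in step, with falls of 2.76 ± 0.10 for Scnn1g and, named after their values were seen, 2.58 ± 0.11 for Scnn1a and 2.28 ± 0.12 for Scnn1b. Scnn1g read 9.18, 9.30 and 9.55 in air and 6.79, 6.51 and 6.46 with smoke. The amino acid carrier Slc6a14 fell by 3.34 ± 0.08 and the phosphate carrier Slc34a2 fell by 2.77 ± 0.09. Kcnn4, a calcium-activated potassium channel of immune and tumour cells, was the 1 member that rose (3 did without smoke replicate 1), by 0.77 ± 0.11, from 9.67, 9.35 and 9.30 to 10.17, 10.19 and 10.26. Of 30 members 24 fell, with a median of -1.05, and without the 3 cell type markers 21 of 27 fell with a median of -0.83.

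Genes that set vascular tone were also lower. Soluble guanylate cyclase, the receptor for nitric oxide, lost signal in both of its subunits, of which Gucy1b1 fell by 2.93 ± 0.09 and Gucy1a1 fell by 2.80 ± 0.09, and so did Pde5a, which breaks down its product, by 2.76 ± 0.09. Angiotensinogen, Agt, rose by 0.55 ± 0.13, and so did the receptors Agtr2, Lpar6 and Ramp3 by 0.36, 0.27 and 0.41. Agtr2 missed the test without smoke replicate 3 (0.24), Lpar6 without air replicate 2 or air replicate 3 (0.24 and 0.25), and Ramp3 without air replicate 1 or 3 or smoke replicate 2 or 3 (0.32 to 0.39). In this list 4 of 29 rose and 18 fell (median -0.84), with 2 rises without air replicate 3 or smoke replicate 3, 7 after median centring and 1 in the 6 wild type arrays alone, and outside the 5 cell type markers 13 of 24 fell with a median of -0.39. Among genes of vessel growth, 9 of 29 rose and 17 fell (median -0.35). Vegfa, which alveolar epithelium makes in quantity, fell by 1.27 ± 0.07, from 10.94, 10.94 and 11.11 to 9.71, 9.77 and 9.70. Its relative Pgf, placental growth factor, rose by 1.61 ± 0.14, from 7.93, 7.58 and 7.44 to 9.52, 9.12 and 9.15 (3.06-fold; adjusted p = 1.25e-06). Angpt2, which loosens vessels ahead of sprouting, rose by 1.16 ± 0.07, while its receptor Tek fell by 2.62 ± 0.07.

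Prostaglandin and leukotriene genes changed in opposite senses along the pathway. Hpgd, the enzyme that inactivates prostaglandins and is abundant in lung, read 11.69, 11.88 and 12.01 in air and 8.27, 7.82 and 7.79 with smoke, a fall of 3.90 ± 0.12 or 14.9-fold (adjusted p = 3.17e-11). Slco2a1, the carrier that brings prostaglandins to it, fell by 2.78 ± 0.08. Ptgs2, cyclooxygenase 2, which starts their synthesis, read 9.96, 9.62 and 9.56 in air and 10.91, 10.74 and 10.59 with smoke, a rise of 1.03 ± 0.14 (adjusted p = 0.000127). Alox15, the lipoxygenase of alternatively activated and resident peritoneal macrophages, rose by 1.52 ± 0.18, from 7.23, 7.33 and 6.96 to 8.88, 8.74 and 8.47. Haematopoietic prostaglandin D synthase, Hpgds, rose by 1.04 ± 0.10, the 5-lipoxygenase helper Alox5ap by 0.84 ± 0.10 and leukotriene C4 synthase, Ltc4s, by 0.71 ± 0.10. Over the 27 genes 9 rose and 6 fell, with a median of 0.06, so the list as a whole lay near the median of all genes.

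Matrix genes of the lung scaffold fell, and several of tumour stroma rose. Efemp1, a fibulin of elastic tissue, fell by 3.27 ± 0.15, from 9.75, 9.79 and 9.95 to 6.88, 6.13 and 6.66, and Mfap4, Mfap5, the elastic fibre organiser Fbln5 and the crosslinking enzyme Loxl1 by 1.78, 1.68, 1.27 and 1.04. Fbln2, a fibulin induced in wounds, rose by 0.75 ± 0.07. In the elastic fibre list 3 of 18 rose and 12 fell, with a median of -0.56. The 2 chains of type I collagen, which assemble into one trimer, went apart. Col1a1 read 10.68, 10.64 and 10.31 in air and 11.73, 11.88 and 11.88 with smoke, a rise of 1.29 ± 0.09 (adjusted p = 1.86e-07). Col1a2 read 10.30, 10.32 and 10.27 in air and 9.24, 9.16 and 9.33 with smoke, a fall of 1.06 ± 0.06 (adjusted p = 1.73e-08). Each chain was named by 1 probe set, and neither moved past the test in the deficient hosts. Type VI collagen Col6a3 rose by 0.86 ± 0.09 and Col8a1 by 1.20 ± 0.11, and the proteinase enhancer Pcolce2 fell by 1.98 ± 0.09. Among 27 collagen and collagen-processing genes 11 rose and 6 fell, with a median of 0.13.

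Lrrc15, a surface protein of tumour-associated fibroblasts, rose by 1.56 ± 0.19, from 7.79 ± 0.19 (SD, n = 3) in air to 9.47, 9.23 and 9.37. Aspn, the small proteoglycan asporin, rose by 1.37 ± 0.15, from 9.34, 9.51 and 9.84 to 11.25, 10.83 and 10.73. Both lay above every air array in all 3 smoke arrays, although of the 20 activated fibroblast markers 8 rose and 8 fell.

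Matrix proteinases and their inhibitors went both ways. Mmp12, the macrophage elastase tied to smoke-induced emphysema in mice, read 8.80, 8.06 and 7.78 in air and 9.21, 9.30 and 9.12 with smoke, a rise of 0.99 ± 0.19 (adjusted p = 0.00134). Air replicate 1 again lay nearest to the smoke arrays. The sheddase Adam8 rose by 1.26 ± 0.16, legumain, Lgmn, by 0.75 ± 0.07 and Mmp19 by 0.56 ± 0.05. The gelatinase Mmp2 fell by 2.38 ± 0.08, the inhibitor Timp3 by 2.62 ± 0.10, the collagenase Mmp13 by 1.75 ± 0.14 and stromelysin, Mmp3, by 1.29 ± 0.12. Of 32 proteinases and inhibitors 12 rose and 9 fell, with a median of 0.09. In clotting and plasminogen activation 10 of 21 rose and 3 fell (median 0.21). The inhibitor Serpinb2 rose by 1.57 ± 0.30, from 6.95, 6.11 and 5.98 to 8.24, 7.94 and 7.57. The fibrin-linking factor F13a1 rose by 1.31 ± 0.18 and the urokinase receptor Plaur by 0.52 ± 0.10, while Plau, its ligand, at 0.24 ± 0.16 did not pass. Thrombomodulin, Thbd, the endothelial brake on clotting, fell by 2.38 ± 0.08.

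Several chemokines that attract neutrophils and monocytes rose, though not all, and 1 of them, Cxcl2, had the largest rise of any gene in the comparison, just above Cd5l. Cxcl2, a ligand of the neutrophil receptor Cxcr2, read 7.26, 6.77 and 6.63 in air and 9.18, 8.71 and 8.88 with smoke, a rise of 2.04 ± 0.21 or 4.10-fold (adjusted p = 6.50e-06). The monocyte chemokine Ccl3 read 8.04, 7.03 and 7.09 in air and 9.56, 9.16 and 9.05 with smoke, a rise of 1.87 ± 0.24. In both genes the groups were apart by more than their spread. Ccl8 rose by 1.46 ± 0.14, from 5.70, 6.02 and 6.16 to 7.69, 7.43 and 7.15. The other rises included Cxcl3 by 1.30 ± 0.18, Ccl12 by 1.30 ± 0.15, Ccl2 by 0.88 ± 0.13, Ccl6 by 0.83 ± 0.09, Cxcl1 by 0.79 ± 0.10 and Ccl4 by 0.56 ± 0.12. Cxcl5, another Cxcr2 ligand that lung epithelium makes, did not join them at 0.00 ± 0.13. Cxcl15 and Cxcl14, chemokines of lung epithelium and stroma, fell by 2.74 ± 0.11 and 2.03 ± 0.13. In all 17 of 33 ligands rose and 4 fell, with a median of 0.44, which was 0.22 without wild type air replicate 3. In the deficient hosts 2 rose and 1 fell, with a median of 0.04.

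Kappa B sites, the letters that NF-kB dimers bind, were looked for in the promoters of the chemokine genes. The letters GGNNTTTCC on either strand occurred in 7 of the 24 ligands with a window (29.2%), namely Ccl20, Ccl9, Cxcl1, Cxcl2, Cxcl3, Cxcl9 and Cxcl10, and in 6.69% of all 15613 genes. With a further G in front of these letters the shares were 5 of 24 (20.8%) and 1.83%. Among matching ligands other than Cxcl1, Cxcl2 and Cxcl3, the change with smoke was 1.09 for Ccl9, 0.84 for Cxcl10, 0.50 for Cxcl9 and -0.11 for Ccl20. Whether a match goes with a rise was not tested. The promoters of Cxcl1, Cxcl2 and Cxcl3, which lie near each other on chromosome 5, are shown because these ligands rose together. Matches are in capitals (RefSeq, GRCm38.p6, plus strand). They span chr5:90890995-90891294 for Cxcl1, chr5:90903649-90903948 for Cxcl2 and chr5:90785851-90786150 for Cxcl3.
Cxcl1: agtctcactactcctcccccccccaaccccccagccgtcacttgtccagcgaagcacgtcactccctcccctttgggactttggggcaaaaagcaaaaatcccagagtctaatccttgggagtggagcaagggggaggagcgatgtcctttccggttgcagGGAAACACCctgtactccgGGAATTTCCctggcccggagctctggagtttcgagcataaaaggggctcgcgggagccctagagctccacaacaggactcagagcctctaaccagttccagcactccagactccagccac
Cxcl2: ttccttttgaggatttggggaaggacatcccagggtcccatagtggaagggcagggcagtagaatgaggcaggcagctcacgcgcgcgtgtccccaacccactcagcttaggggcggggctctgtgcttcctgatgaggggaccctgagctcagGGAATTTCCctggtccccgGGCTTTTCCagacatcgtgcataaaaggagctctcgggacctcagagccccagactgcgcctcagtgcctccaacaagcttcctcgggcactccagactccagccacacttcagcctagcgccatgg
Cxcl3: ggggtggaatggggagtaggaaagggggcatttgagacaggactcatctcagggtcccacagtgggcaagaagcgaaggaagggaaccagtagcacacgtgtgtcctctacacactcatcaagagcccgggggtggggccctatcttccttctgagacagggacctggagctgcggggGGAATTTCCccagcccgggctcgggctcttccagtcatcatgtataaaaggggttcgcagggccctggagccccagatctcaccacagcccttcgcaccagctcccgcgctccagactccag
Each window holds GGAATTTCC with a G in front of it, and a match in a promoter is a description of the sequence and shows no binding.

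Genes of the interleukin 1 family and other cytokines went both ways. Il1b, interleukin 1 beta, read 7.15, 5.79 and 6.59 in air and 7.94, 7.72 and 7.60 with smoke, a rise of 1.24 ± 0.24 (adjusted p = 0.00156). The air arrays were spread over more than 1 log2 unit and still lay below all smoke arrays. The decoy receptor Il1r2 rose by 1.29 ± 0.15, the co-receptor Il1rap by 0.76 ± 0.11 and the antagonist Il1rn by 0.42 ± 0.10, while the interleukin 18 receptor Il18r1 fell by 2.39 ± 0.12. Of 19 genes of the family 10 rose and 3 fell (median 0.23). Tnf rose by 0.39 ± 0.08, from 6.46, 6.37 and 6.19 to 6.67, 6.78 and 6.75. Il6 stayed dim, at 3.58 to 3.81 in all 6 arrays, and at 0.07 ± 0.08 did not pass, nor did Il1a at 0.10 ± 0.10. The growth factor Ereg rose by 0.66 ± 0.15, and Hbegf at -0.04 ± 0.07 did not pass.

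The interferon response genes turned on a single air array. All 28 measured members read highest in wild type air replicate 1 among the air arrays, which over all genes was so for 31.8%, and in 25 of them that array also exceeded every smoke array. Cxcl10 read 8.98, 6.63 and 6.39 in air and 8.30, 8.24 and 7.97 with smoke, a difference of 0.84 ± 0.49 that did not pass (adjusted p = 0.204, and 2.9e-05 at 1.66 without air replicate 1). Zbp1, a sensor that interferon induces, read 7.94, 6.76 and 6.60 in air and 7.72, 7.52 and 7.82 with smoke, a difference of 0.59 ± 0.25 that was 1.01 and passed without air replicate 1. With every array 2 of the 28 fell in limma, Ifit3 by 1.04 ± 0.17 and Ifih1 by 0.69 ± 0.13, and none rose. Without air replicate 1 the counts were 14 higher and 2 lower, and the median moved from 0.09 to 0.33. Without air replicate 2 the counts were 0 higher and 5 lower, and without smoke replicate 1 they were 2 higher and 5 lower. Array weights gave 3 higher and 7 lower, and median centring 6 higher and 2 lower. Slfn4, a myeloid gene of the Schlafen family, read 8.16, 6.39 and 6.43 in air and 8.55, 8.38 and 8.45 with smoke, and rose by 1.46 ± 0.36 with every array in (adjusted p = 0.00832). The number of genes past the test was 4868 without that array.

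Complement genes went both ways. C7, a late component made by lung fibroblasts and mesothelium, read 10.54, 10.56 and 10.75 in air and 6.61, 6.62 and 6.33 with smoke, a fall of 4.10 ± 0.09 or 17.1-fold (adjusted p = 3.88e-12). The inhibitor Serping1 fell by 2.74 ± 0.10 and C6 by 1.29 ± 0.10. The C1q chains, which macrophages make, rose, as in C1qc by 1.11 ± 0.10, and so did the receptor C5ar1 by 1.07 ± 0.12 and properdin, Cfp, by 1.08 ± 0.10. Of 21 members 7 rose and 12 fell, with a median of -0.27, and the macrophage markers rose in the same arrays.

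Genes of alternatively activated macrophages did not rise as one. Arg1, arginase, read 9.34, 9.17 and 8.74 in air and 10.69, 10.54 and 10.53 with smoke, a rise of 1.50 ± 0.18 (2.83-fold; adjusted p = 3.35e-05). Cd5l, a secreted macrophage survival protein, read 6.23, 5.58 and 5.43 in air and 8.06, 7.73 and 7.54 with smoke, a rise of 2.03 ± 0.23. The scavenger receptors Mrc1 and Stab1 and the folate receptor Folr2 rose by 1.11 ± 0.10, 0.84 ± 0.06 and 1.16 ± 0.12. Retnla, a resistin-like protein that interleukins 4 and 13 induce and that lung epithelium also makes, read 9.15, 9.03 and 9.23 in air and 5.94, 5.74 and 5.87 with smoke, and it fell by 3.29 ± 0.11 (9.77-fold; adjusted p = 9.68e-11). The chitinase-like genes Chil1 and Chil3 fell by 2.57 ± 0.08 and 1.99 ± 0.14. In all 10 of 28 rose and 6 fell, with a median of 0.16. Nos2, the inducible nitric oxide synthase usually set against Arg1, rose too, by 0.98 ± 0.15, and so did the lipid receptor Trem2 by 0.62 ± 0.07. The fatty acid receptor Cd36, also of endothelium, fell by 2.12 ± 0.08, and Gpnmb at 0.03 ± 0.13 did not pass.

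**Figure D4:**
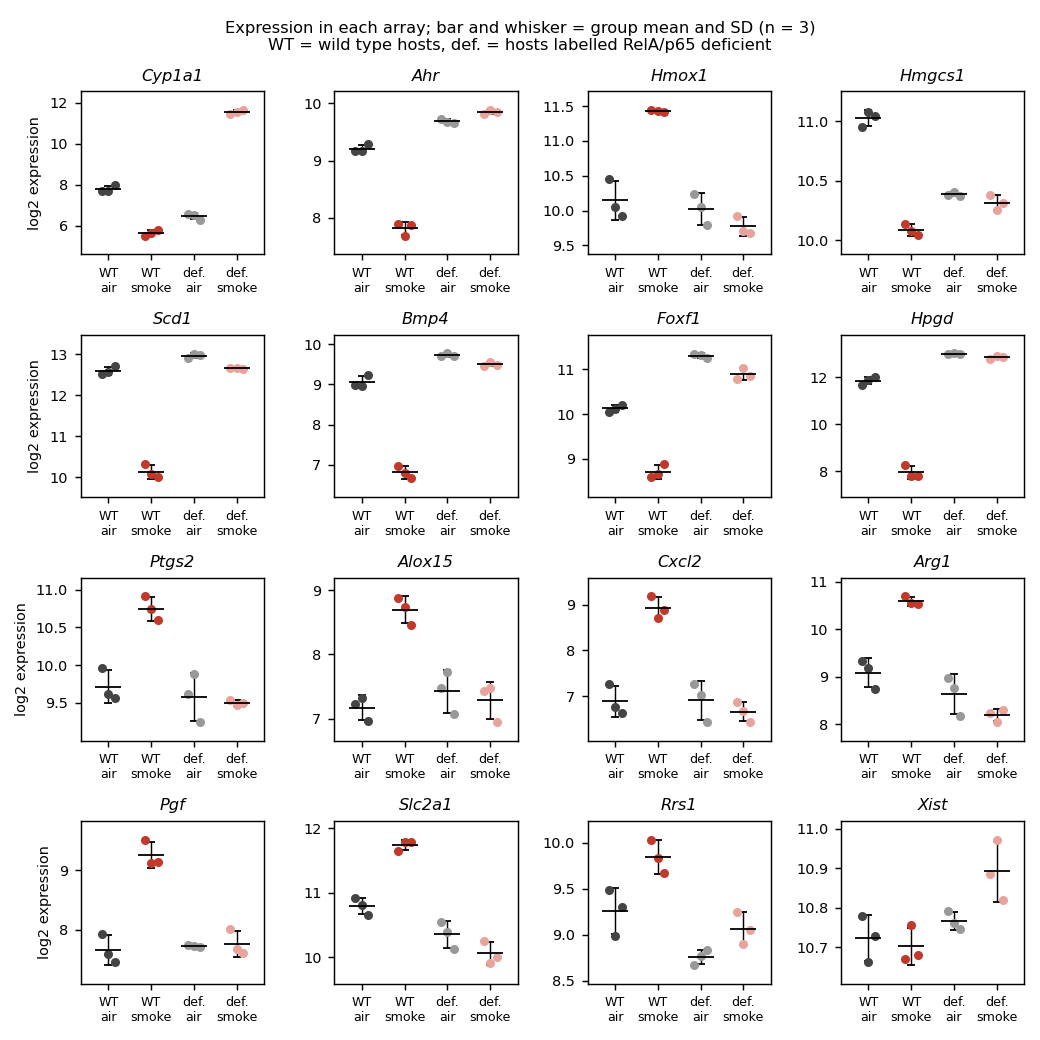
Log2 expression of 16 genes in each of the 12 arrays, grouped as wild type air, wild type smoke, deficient air and deficient smoke, with the group mean and SD (n = 3) as bar and whisker. Cyp1a1 falls with smoke in wild type hosts and rises in deficient hosts, Hmox1, Cxcl2, Arg1 and Pgf are highest in wild type smoke, and Scd1, Bmp4, Foxf1 and Hpgd are lowest there.

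Genes for making ribosomes rose by small amounts and in 1 direction. Of 34 factors of ribosome biogenesis 21 rose and none fell, with a median of 0.33 against 0.08 over all genes and against 0.09 for the same genes in the deficient hosts. Rrs1, a factor of the large subunit, read 9.48, 8.99 and 9.30 in air and 10.04, 9.84 and 9.67 with smoke, a rise of 0.59 ± 0.13 (adjusted p = 0.00406). Rrp12 rose by 0.52 ± 0.08 and fibrillarin, Fbl, by 0.48 ± 0.10. Air replicate 1 read highest of the air arrays for 32 of the 34. Without air replicate 2 or air replicate 3 the counts were 11 and 10 higher. The structural proteins of the ribosome did not follow, since 2 of 61 passed, both higher, with a median of 0.07. These were Rps10, by 0.22 ± 0.07, and Rpl36, by 0.16 ± 0.06, and neither passed without air replicate 1 (adjusted p = 0.075 and 0.106), while Rps10 also missed it without air replicate 2 (0.21) and Rpl36 without air replicate 3, smoke replicate 2 or smoke replicate 3 (0.14 to 0.16). Leaving out other single arrays gave 1 to 4 higher, 4 of them without smoke replicate 1, and 20 were higher after median centring, 9 with array weights, 6 after quantile normalization and none in the 6 wild type arrays alone.

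Cell division genes that passed the test all rose. Of 31 mitotic genes 13 rose and none fell (median 0.37), and of 32 DNA replication genes 14 rose and none fell (median 0.29). The mitotic activator Cdc20 read 8.78, 8.72 and 8.74 in air and 9.39, 9.15 and 9.21 with smoke, a rise of 0.50 ± 0.10 (adjusted p = 0.00219). Orc1, which marks origins of replication, rose by 0.60 ± 0.12, while Mki67 at 0.38 ± 0.14 did not pass (adjusted p = 0.0575) and Ccnd1 at 0.01 ± 0.09 was flat. These counts leaned on single arrays. The mitotic list had 7 rises without air replicate 2 or without smoke replicate 2 and 8 without air replicate 3. The replication list had 2 without air replicate 2, 1 without air replicate 3, 6 without smoke replicate 1 and 8 without smoke replicate 2. The median of both lists stayed above 0.23 in each of these. Scaling moved the counts up, to 20 and 23 rises after a second quantile normalization and 26 and 24 after median centring, while the 6 wild type arrays alone gave 17 and 8. Air replicate 1 read highest of the air arrays for 25 of the 31 mitotic and 29 of the 32 replication genes.

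Genes of sugar use and of the response to low oxygen rose more often than they fell. The glucose transporter Slc2a1 read 10.91, 10.81 and 10.66 in air and 11.65, 11.79 and 11.79 with smoke, a rise of 0.95 ± 0.11 (1.93-fold; adjusted p = 3.38e-05). The lactate exporter Slc16a3 rose by 0.92 ± 0.11, the kinase Pdk1, which keeps pyruvate out of mitochondria, by 0.68 ± 0.08 and lactate dehydrogenase Ldha by 0.34 ± 0.08. Of 20 glycolysis genes 13 rose and 2 fell (median 0.36), and 1 fell without any of the air arrays or without smoke replicate 2. Other hypoxia targets gave 17 of 27 higher and 3 lower (median 0.39). Angptl4, a lipase inhibitor, rose by 1.37 ± 0.10, from 8.31, 8.63 and 8.20 to 9.83, 9.76 and 9.65, the peptide Adm by 1.25 ± 0.13 and the oxidoreductase Ero1a by 0.89 ± 0.09. Leaving out any wild type array left 16 or 17 of these higher. Hif1a, whose protein drives this response, was at 0.20 ± 0.09 and did not pass. Vegfa, named above, fell although it is also a hypoxia target.

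Among growth-linked transcription factors 13 of 31 rose and 5 fell, with a median of 0.20. Myc read 11.44, 11.12 and 11.25 in air and 12.24, 12.11 and 12.12 with smoke, a rise of 0.89 ± 0.14 (1.85-fold; adjusted p = 0.000303). Fosl1, a partner of Jun proteins in invasive cells, rose by 0.92 ± 0.10, from 8.72, 8.38 and 8.33 to 9.44, 9.38 and 9.37, and the stress factor Atf3 by 0.53 ± 0.09. Sox11 fell by 1.09 ± 0.12 here and by 0.85 in the deficient hosts, and Snai2 fell by 0.74 ± 0.10. Stress of the endoplasmic reticulum did not rise with them. None of 23 genes was higher and 7 were lower (median -0.11), or 4 without air replicate 3 or in the 6 wild type arrays alone and 11 with array weights, led by the sensor Ern1 with a fall of 0.85 ± 0.07, while the chaperone Hspa5 at -0.10 ± 0.06, Ddit3 at -0.04 ± 0.06 and the amino acid response gene Asns at 0.08 ± 0.10 did not pass.

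Clock genes gave 7 rises and 5 falls among 18 members (median -0.09), with 9 falls under array weights. The repressors Bhlhe40 and Nfil3 rose by 0.71 ± 0.09 and 0.60 ± 0.09, and Per1 by 0.41 ± 0.09. The nuclear receptor Rora fell by 1.00 ± 0.08 and the output factor Tef by 0.66 ± 0.07. The output gene Dbp at -0.20 ± 0.08 did not pass in wild type hosts and fell by 1.01 in the deficient hosts. The labels give no time of day. Genes that glucocorticoids or metals induce also split, with 8 of 19 higher and 7 lower (median 0.03). The metallothioneins Mt1 and Mt2 rose by 0.81 ± 0.08 and 0.80 ± 0.09 and Fkbp5 by 0.83 ± 0.10, while Dusp1 fell by 0.54 ± 0.08 and Cdkn1c by 0.91 ± 0.08.

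Olfactory receptors, which lung and tumour cells are not known to use in number, show how the small rises reached dim probe sets. Of 1027 measured receptors 951 were dim, with the mean of both wild type groups below 6. Yet 108 of the 1027 rose and 1 fell, and the share that rose was 10.5% against the 15% of all genes. Their median was 0.12. The count of rises was 312 without smoke replicate 1, 60 without air replicate 1, 58 without smoke replicate 3 and 31 without air replicate 3. It was 371 with array weights, 468 after median centring, 55 after a second quantile normalization and 29 in the 6 wild type arrays alone. Olfr1408 read 4.46, 4.47 and 4.52 in air and 4.98, 4.84 and 4.85 with smoke. Levels this low are among the dimmest on the array, and the median of this family was 0.02 after a second quantile normalization.

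In deficient hosts smoke changed fewer genes past the test. There 138 genes (0.692%) rose and 343 (1.72%) fell, and the interaction of smoke and host passed for 2909 genes (14.6%). The lung marker lists named above had median changes of -0.06 to -0.002 in deficient hosts. The mean of the alveolar type II list was 11.68 to 11.72 in deficient air and 11.65 to 11.77 in deficient smoke. That of the club cell list was 11.01 to 11.05 and 10.99 to 11.10. Both lay above their wild type air levels of 10.65 to 10.86 and 10.18 to 10.44. How much of the differences between hosts came with lung content was not tested. Of all 2991 genes higher in wild type hosts 929 passed the interaction test, and of the 2787 lower ones 1685. Genes taken for a large wild type change are bound to pass more often, since the interaction contains that change, and the next counts are descriptions. Of the 68 genes that rose at least 2-fold in wild type hosts, 64 passed the interaction test, and their median change in deficient hosts was -0.09. Of the 645 that fell at least 2-fold, 635 passed it, with a median of -0.07 there. A total of 293 genes passed in both hosts, and 120 of these changed in opposite directions. Among the genes named here 10 did so, namely Adm, Aldh3a1, Atf3, Cd5l, Cyp1a1, H2-Ea, Mmp3, Ms4a4a, Retnla and Tnf. Cd5l rose by 2.03 here and fell by 1.57 in the deficient hosts, and the membrane protein Ms4a4a rose by 1.46 and fell by 1.00. H2-Ea fell by 3.49 ± 0.32 here and rose by 2.38 there. Angptl4 rose in both, by 1.37 and 0.74, and the difference of 0.63 ± 0.15 passed the interaction test (adjusted p = 0.00929).

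**Figure D5:**
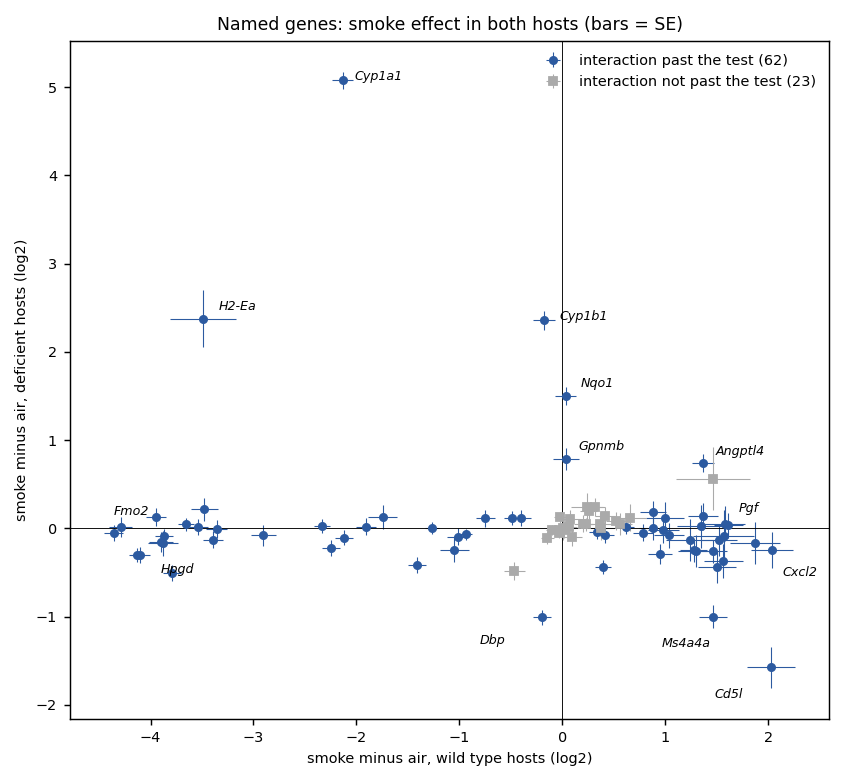
Smoke minus air (log2) in deficient hosts against the same in wild type hosts for 85 of the named genes, with the SE of each as bars. Blue points are the 62 genes whose difference between hosts passed the interaction test and grey squares the 23 others, and most points spread along the horizontal axis close to 0 on the vertical one, with Cyp1a1 far above at -2.13 and 5.08.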

How the data were processed

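The deposited table holds log2 values for 34760 probe sets, made by the authors with RMA in Affymetrix Expression Console, per the submitters' processing notes; versions are not given in the sources used here. RNA was extracted with RNeasy and labelled by the Affymetrix whole transcript sense target protocol, per the labels' protocols. GEO's platform annotation gave 1 gene to 21640 probe sets and several to 1321, and 11799 were not listed; 21553 matched the RefSeq gene table by Entrez identifier. The probe set with the highest mean stood for each of 19937 genes.

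All 12 arrays entered 1 fit in limma 3.58.1 (R 4.3.3) with a mean per group and moderated variances, 2-sided, adjusted by Benjamini-Hochberg over all genes and tested on simulated data. The rule for named genes took the 15 largest rises and 15 largest falls outside the marker lists, up to 5 members passing in each direction and 3 not passing from each list, and a fixed set. Members and lists were chosen with earlier results of these data known. Alternatives changed the filter on dim genes (3 or more arrays at log2 6 or above), probe set choice, variance trend, array weights, scaling, replicate block and arrays used. Figures were drawn in Python 3.11.15.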

Additional observations from a re-analysis of the deposited data

Results flagged for a closer look

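The smoke effect was also measured in the hosts labelled RelA/p65 deficient, and the interaction of smoke and host in limma asked whether the 2 effects differed. Of 85 genes tested, 62 passed (adjusted p under 0.05), against 14.6% of all 19937 genes. The 85 were the 15 largest rises and 15 largest falls outside the marker lists, together with the fixed set. Other genes named above are not among them. Each value below is the smoke effect in wild type hosts minus that in deficient hosts, on the log2 scale, from 3 arrays in each of the 4 groups. Many of these genes were taken because they changed most in wild type hosts, and the interaction contains that change. Both the count and the sizes are therefore descriptions. Lung marker lists fell as a group only in wild type hosts, and their part in these values was not tested.

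Among genes of oxidation and conjugation the difference was -7.21 for Cyp1a1, -2.53 for Cyp1b1, -3.69 for Cyp2b10, -4.31 for Aldh1a7, -4.07 for Fmo1, -4.30 for Fmo2, -3.82 for Adh1, -3.55 for Gsta3 and -1.47 for Nqo1. In the sterol enzyme gene Hmgcs1 it was -0.87. Among signals and factors of lung structure it was -2.03 for Bmp4, -2.82 for Bmp5, -2.36 for Hhip, -0.92 for Fgf10, -0.80 for Wnt2, -0.51 for Wif1, -0.86 for Nkx2-1, -1.92 for Hopx, -0.60 for Gata6, -0.99 for Foxf1 and -3.29 for Sema3c. Among the other genes with a value below 0 it was -5.87 for H2-Ea, -3.80 for C7, -3.78 for Bpifb1, -3.75 for Hpgd, -3.71 for Mal2, -3.70 for Plpp3, -3.35 for Cpm, -3.26 for Enpep, -2.01 for Cd36, -1.87 for Mmp13, -1.27 for Vegfa and -0.75 for Gpnmb.

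Among chemokines and other inflammatory genes the difference was above 0, at 0.84 for Cxcl1, 2.28 for Cxcl2, 1.56 for Cxcl3, 0.70 for Ccl2, 2.04 for Ccl3, 1.73 for Ccl8, 1.38 for Il1b, 0.84 for Tnf, 1.00 for Nos2 and 1.11 for Ptgs2. Among genes that macrophages are known to express it was 3.60 for Cd5l, 2.47 for Ms4a4a, 1.94 for Arg1, 1.66 for Alox15, 1.53 for Lilr4b, 0.61 for Trem2 and 0.88 for Mmp12. Among genes of growth, vessels and sugar use it was 1.58 for Pgf, 0.63 for Angptl4, 0.88 for Myc, 0.39 for Ldha and 1.24 for Slc2a1. For the remaining genes it was 1.53 for Hmox1, 1.66 for Serpinb2, 1.93 for Lrrc15, 1.23 for Aspn, 1.33 for Rgs16, 0.49 for Per1 and 0.81 for Dbp.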

How the results depend on the processing

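Precision is limited by 3 arrays a group, and no detection call came with the values, so low signals carry no statement about presence. Of the 5778 genes that changed with smoke, 2991 were higher. The count became 10211 (6250 higher) with array weights, 9852 (7600 higher) with each array centred on its median, and 3454 (1390 higher) in the 6 wild type arrays alone. Leaving out single arrays gave 3695 to 8824 changed genes, of which 1444 to 5420 were higher, with the lowest counts without air replicate 3 and the highest without smoke replicate 1. The lower count stayed within 1.5 times of 2787 under each alternative run. For these and the values below the cause was not tested.

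With replicate number as a block, 6084 genes changed, 3266 of them higher, and 5558 of the 6084 were also called without it. Same-numbered air and smoke arrays correlated at 0.175, 0.365 and -0.363 in their deviations from the group means. Pairs of different number ranged from -0.588 to 0.491. With 3 arrays a group these values cannot tell whether same-numbered arrays were handled together. The block gave 20 rises each among mitotic and DNA replication genes, against 13 and 14 without it.

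Median list changes moved by more than the spread between arrays in these cases. With the filter on dim genes they were -0.20 for AhR targets, 0.32 for the interleukin 1 family, -0.43 for complement, 0.24 for alternative macrophage genes and 0.21 for olfactory receptors. With array weights they were -0.14 for AhR targets, 0.011 for NRF2 genes, -0.93 for ion and water transport, 0.19 for collagens, 0.28 for clotting genes, -0.36 for complement, 0.16 for growth-linked factors and -0.036 for clock genes. With median centring they were 0.016 for AhR targets, 0.15 for NRF2 genes, -0.63 for cholesterol synthesis, -0.58 for lipogenesis, -0.48 for lung transcription factors, -0.10 for BMP and TGF-beta genes, -0.11 for FGF and hedgehog genes, 0.15 for eicosanoid genes, -0.47 for elastic fibre genes, 0.22 for collagens, 0.18 for matrix proteinases, 0.30 for clotting genes, 0.32 for the interleukin 1 family, -0.18 for complement, 0.25 for alternative macrophage genes, 0.46 for mitosis, 0.38 for DNA replication, 0.45 for glycolysis, 0.48 for hypoxia targets, 0.29 for growth-linked factors, -0.020 for ER stress genes, -0.004 for clock genes, 0.12 for glucocorticoid and metal targets, -0.26 for vessel growth genes, 0.16 for cytosolic ribosomal proteins and 0.21 for olfactory receptors. With quantile normalization they were 0.11 for NRF2 genes, -0.65 for cholesterol synthesis, -0.61 for lipogenesis, -0.51 for lung transcription factors, -0.11 for FGF and hedgehog genes, 0.13 for eicosanoid genes, -0.49 for elastic fibre genes, 0.19 for collagens, 0.14 for matrix proteinases, 0.26 for clotting genes, 0.10 for alternative macrophage genes, 0.42 for glycolysis, 0.26 for growth-linked factors, -0.028 for clock genes and 0.018 for olfactory receptors. Leaving out single arrays gave -0.132 to 0.005 for AhR targets, -0.003 to 0.108 for NRF2 genes, -0.705 to -0.635 for lipogenesis, -0.25 to -0.17 for BMP and TGF-beta genes, -0.317 to -0.135 for FGF and hedgehog genes, 0.020 to 0.075 for eicosanoid genes, -0.63 to -0.54 for elastic fibre genes, 0.10 to 0.18 for collagens, 0.18 to 0.25 for clotting genes, 0.22 to 0.58 for chemokines, 0.19 to 0.33 for the interleukin 1 family, 0.158 to 0.265 for growth-linked factors and -0.129 to -0.043 for clock genes.

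Among single genes, only genes that had not passed the test changed sign. Array weights gave 0.030 for Ccl20, -0.083 for Gpnmb, -0.017 for Il6, -0.077 for Nqo1 and 0.007 for Xist. Quantile normalization gave 0.051 for Ddit3, 0.006 for Hbegf, -0.014 for Il1a and -0.001 for Il6. Median centring gave 0.054 for Ddit3, 0.053 for Hbegf and 0.067 for Xist. Leaving out single arrays gave -0.039 to 0.095 for Ccnd1, -0.059 to 0.073 for Cxcl5, -0.066 to 0.001 for Ddit3, -0.002 to 0.089 for Gpnmb, -0.088 to 0.009 for Hbegf, -0.080 to 0.109 for Nqo1 and -0.052 to 0.006 for Xist. Of the other single-gene values under an alternative, 2952 kept direction and side of the threshold, 27 lost the call and 26 gained it.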
